A study of Mus musculus with 6 samples.

Results

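The genes described here are 34 genes that mark microglia, the resident macrophages of the brain, or that encode complement proteins and receptors which microglia make. They were chosen by symbol, with earlier results of these data known, and all 34 were found among the 14824 genes of the deposited table. Of the 13747 genes with enough reads for a test, 33 were members of this list. The exception was C3. They were measured by bulk RNA-seq of the primary somatosensory (S1) cortex, the area that holds the whisker barrels, in wild-type mice at postnatal day 21, labelled C57B6 and given in the methods as male C57BL/6 mice. In 3 samples, here WS, the whiskers had been stimulated daily and tissue was taken 90 minutes after the last session. The other 3 samples, here NS, received no stimulation, and the study defines NS as the barrel cortex on the unstimulated side of the same mice. Every sample was a piece of cortex with all its cell types, with no sort for microglia, and genotype, strain, age and region were shared by both groups. In the methods only the right whiskers were stimulated. By the study's definition of NS, brain side and stimulation therefore cannot be told apart. The comparison asks whether these genes differed between stimulated and unstimulated cortex.

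Microglia survey the cortex with motile processes, sense ATP and ADP through purinergic receptors, and depend on signalling through the CSF1 receptor to survive. In the developing cortex they are known for trimming synapses. C1q, the recognition molecule of the classical complement cascade, can tag a synapse, cleaved C3 can be deposited on it, and the integrin CR3 on microglia binds that C3 fragment. TREM2 and Fc receptors signal through adaptors that carry an ITAM, a short tyrosine motif, and lead to uptake into lysosomes.

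Read counts were recovered for each library from what was deposited for a gene, its z-scores with their mean and SD. Levels are in CPM, read counts scaled to the same TMM-normalized library size in each sample. The 6 libraries held between 15660395 and 17276168 counts over the listed genes, with both extremes in WS, so that library size did not separate the groups. The biological coefficient of variation was 10.1% between libraries of a group. Haemoglobin gene Hbb-b1 stood at 1545 counts in NS replicate 2 and 1724 in WS replicate 2. The other 4 libraries had 3 to 74. Hbb-bs stood at 1532 and 1807 counts in NS replicate 2 and WS replicate 2, against 2747 to 4233 elsewhere. Hbb-bt stood at 221 and 257, against 365 to 708. So for these haemoglobin genes the replicate 2 libraries of both groups stood apart, and the reason was not tested. The legend for these data gives 3 male mice, and the labels tie no sample to a mouse, so which NS and WS libraries share one was not known here.

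All 34 genes were detected in every library, including the defining microglial markers Cx3cr1, P2ry12, Tmem119 and Csf1r. Levels were compared between genes per kilobase of all annotated exons, as the mean and SD over the 6 libraries. C1qb was highest at 49.3 ± 2.8 CPM per kilobase, followed by C1qa at 45.3 ± 2.56, and these neighbours overlapped within 1 SD. Ctss, the lysosomal protease cathepsin S, stood at 37.3 ± 3.04 and C1qc at 25.9 ± 2.11, each apart from its neighbours. Csf1r at 20.0 ± 1.48, Tyrobp at 19.1 ± 2.62 and P2ry12 at 18.1 ± 1.43 could not be ordered within their spread. At the other end stood C3ar1, the receptor of the C3a peptide, at 0.477 ± 0.116 CPM per kilobase, Ptprc at 0.133 ± 0.0226 and C3 at 0.0461 ± 0.0116. The order depends on which exons a gene is given. Per kilobase of the longest principal transcript, a measure chosen after seeing the data, C1qc stood at 41.6 ± 3.39, Trem2 at 9.69 ± 0.911 in place of 2.13 ± 0.2, and Ptprc at 0.519 ± 0.0882. C1qb, C1qa and Ctss kept 49.3, 45.3 and 37.4. In both measures C1qb was highest and C3 lowest.

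**Figure D1:**
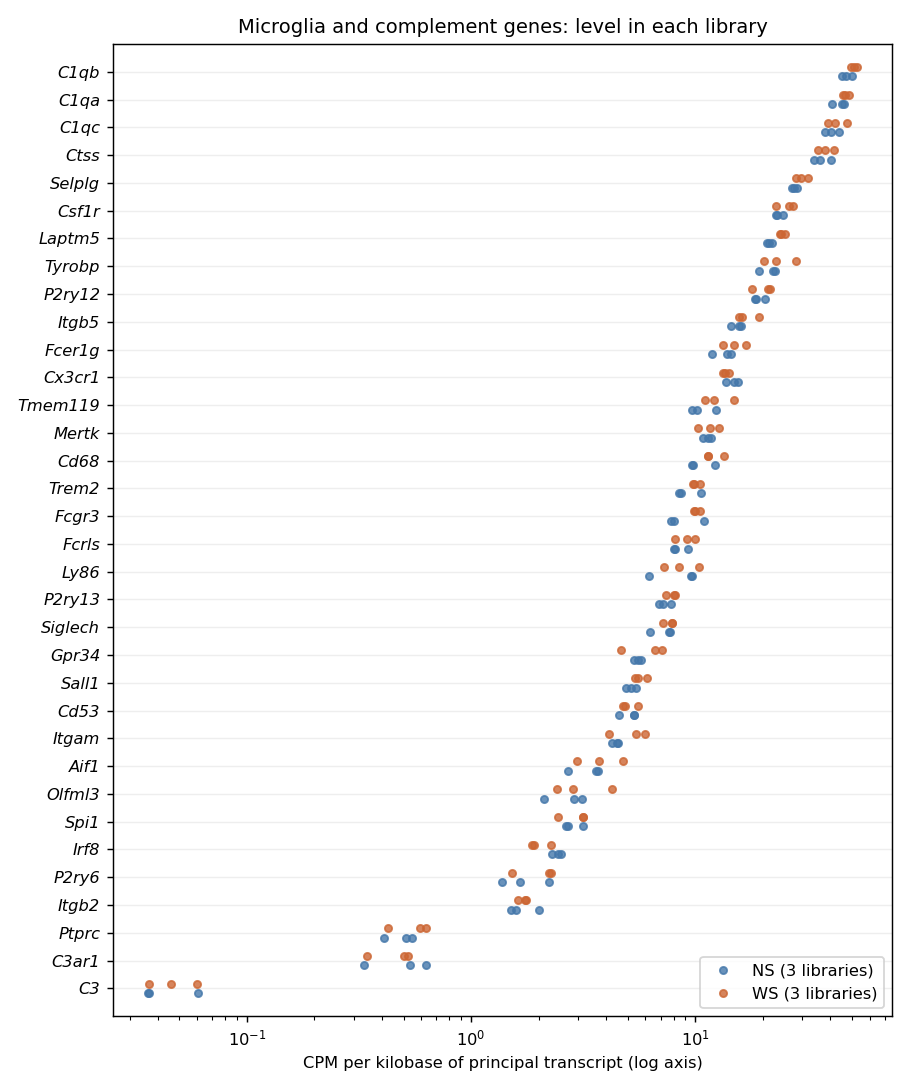
Level of each of the 34 genes in each library, as CPM per kilobase of the longest principal transcript on a log axis, ordered by the mean. Blue points are the 3 NS and orange points the 3 WS libraries. The points of the groups lie among each other for every gene but Laptm5 and Irf8, and C3 stands far below the rest.

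No gene of the list passed the threshold of the comparison, which was an adjusted p under 0.05 with an absolute log2 fold change above 1. By the quasi-likelihood test of edgeR, with p-values adjusted by Benjamini-Hochberg over all tested genes, 0 of 33 members were past it, beside 4 of 13747 genes or 0.0291%, and the adjusted p was 0.9998 for each of the 33. With the adjusted p alone 0 of 33 passed, beside 0.0364% of all genes, and DESeq2 also called 0. In these bulk samples, fewer cells of a type and less RNA per cell cannot be told apart, so each value below describes the tissue. At an unadjusted p under 0.05, 1 of 33 members was higher in WS, which was Laptm5, beside 0.866% of all tested genes, and 0 were lower, beside 0.327%. DESeq2 also gave Laptm5 alone. This count rested on single libraries. It was 0 without NS replicate 1 or NS replicate 2, beside 0.649% and 1.15% of all genes tested in those fits, and 3 without NS replicate 3, beside 0.903%. It was 2 without WS replicate 1, beside 2.27%, 2 without WS replicate 2, beside 0.866%, and 1 without WS replicate 3, beside 2.30%. Without WS replicate 1, Irf8 was lower at that threshold, beside 0.822% of all genes, and in the other 5 fits no member was. A fit that blocked on the replicate number gave 0 members in either direction at an unadjusted p under 0.05, beside 1.38% of all genes higher and 0.386% lower, and 0 past the full threshold, beside 0.0436%, or past the adjusted p alone, beside 0.08%. It had 29 members above 0, beside 51.9%, and 4 below, beside 48.1%.

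The differences were small and most of them lay on the same side. The log2 fold change of WS over NS was above 0 for 29 of 33 members, beside 53.0% of all tested genes, and below 0 for the other 4, beside 47.0%, which were Cx3cr1, C3ar1, Irf8 and Cd53. The median over the members was 0.11 on the log2 scale, or 7.83% higher in WS, with quartiles at 0.06 and 0.17, beside a median of 0.01 and quartiles at -0.06 and 0.08 over all tested genes. Members ranged from -0.26 for Irf8 to 0.24 for Tmem119, inside the span from -0.17 to 0.26 that held the middle 90% of all genes except at its lower end. The median SE of a single member's log2 fold change was 0.129. The 95% interval held 0 for 32 of 33 members, and for all 33 it lay within a change of 1 on the log2 scale in either direction, reaching from -0.75 for C3ar1 to 0.71 for P2ry6. For 27 of 33 the upper bound was under 0.5.

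**Figure D2:**
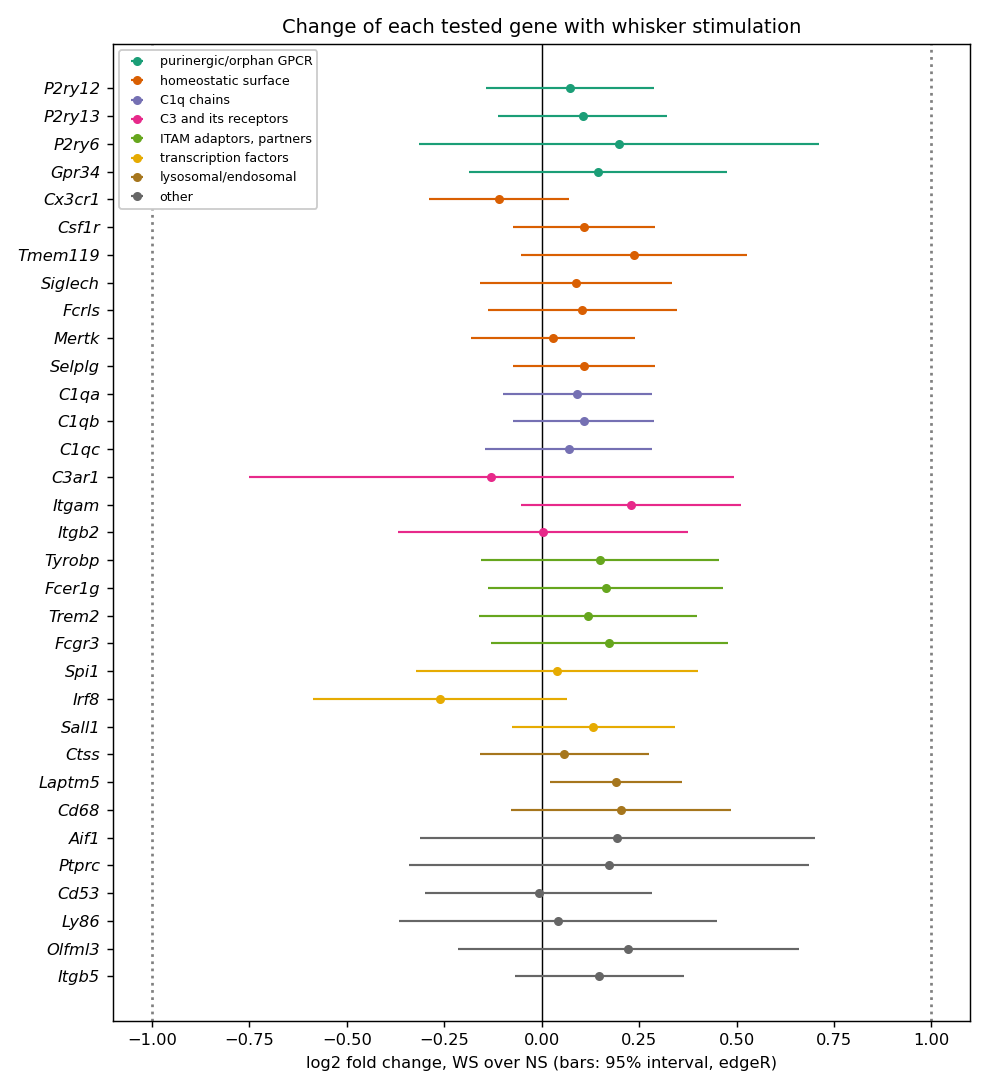
Log2 fold change of WS over NS for the 33 tested genes, with the 95% interval from edgeR as bars, coloured by role. Dotted lines mark a change of 1 in each direction. All intervals stay between the dotted lines, and Laptm5 alone has an interval that leaves out 0, from 0.02 to 0.36.

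**Figure D3:**
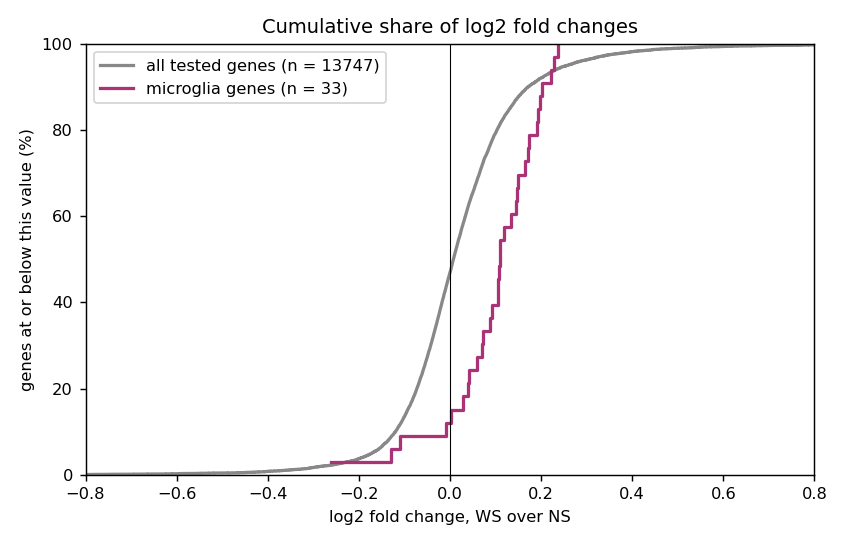
Cumulative share of genes, in percent, at or below each log2 fold change of WS over NS, for the 33 tested members and for all 13747 tested genes. The curve of the members runs to the right of the other for most of its length, with medians of 0.11 and 0.01.

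The shift came from some of the libraries more than others. The summed CPM of the 34 genes was 890.6, 855.7 and 888.7 in NS replicates 1, 2 and 3, and 972.1, 900.1 and 945.6 in WS replicates 1, 2 and 3. The WS sums lay above the NS sums, but WS replicate 2 was nearer to the NS libraries than to the other two WS libraries. Of the 33 tested genes, 26 were above their own mean over the 6 libraries in WS replicate 1 and 25 in WS replicate 3, against 16 in WS replicate 2. In NS replicates 1, 2 and 3 these numbers were 15, 8 and 14. Without WS replicate 1 the median log2 fold change was 0.07, with 25 of 33 above 0, and without NS replicate 1 it was 0.14, with 28 of 33 above 0. For these counts by library and by left-out fit, the share over all tested genes was not worked out. They describe the members alone. By the same-numbered libraries, 7 of 33 members were higher in WS in 3 of 3 pairs, beside 9.82% of all tested genes, and these were P2ry6, Fcrls, Selplg, C1qa, Fcer1g, Laptm5 and Aif1. Irf8 was the 1 member lower in 3 of 3, beside 8.57%.

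Among the purinergic and related receptors, all 4 members had a positive log2 fold change and none passed the test. P2ry12 encodes the ADP receptor that steers microglial processes and is a hallmark of the resting state. Its level was 43.3, 47.7 and 43.5 CPM in NS and 41.7, 49.5 and 50.3 CPM in WS. The lowest and the highest libraries were both WS, so the groups overlapped, and the log2 fold change was 0.07 with an SE of 0.0987. P2ry6, a UDP receptor linked to phagocytosis, had the largest difference of this group at 0.20 (95% interval -0.31 to 0.71), from 4.35, 2.68 and 3.23 CPM in NS and 4.44, 2.97 and 4.36 CPM in WS. NS replicate 1 lay above WS replicate 2, and the replicate 2 libraries were the lowest of NS and of WS. P2ry13, another ADP receptor, was at 18.4 ± 1.18 CPM in NS against 19.8 ± 0.981 (SD, n = 3 each) in WS, and Gpr34, a lysophosphatidylserine receptor, at 11.6 ± 0.399 and 12.8 ± 2.7. The lowest Gpr34 value of all 6 libraries, 9.78 CPM, was that of WS replicate 1.

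Of the 7 surface receptors of homeostatic microglia, 6 had a positive log2 fold change and Cx3cr1 a negative one, none past the test. Cx3cr1, the receptor of the neuronal chemokine fractalkine, was at 70.0, 61.8 and 66.6 CPM in NS and 59.6, 63.7 and 60.7 CPM in WS. The NS libraries were higher on average and the groups overlapped through NS replicate 2 and WS replicate 2. The log2 fold change was -0.11 (95% interval -0.29 to 0.07), with an unadjusted p of 0.21 in edgeR's quasi-likelihood test. Tmem119, a membrane protein used to tell microglia from other macrophages, was at 21.7, 22.9 and 27.8 CPM in NS and 33.5, 24.7 and 27.2 CPM in WS. It had the largest positive value of the list, 0.24 with an SE of 0.132 and an unadjusted p of 0.0993, but NS replicate 3 was above WS replicates 2 and 3. Left out in turn, the libraries gave 0.10 to 0.35. The count ratio of Tmem119 to Cx3cr1 was 0.311, 0.371 and 0.417 in NS and 0.562, 0.387 and 0.447 in WS, with NS replicate 3 inside the range of WS.

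Csf1r, the receptor for CSF1 and IL-34, was the member with the most reads, at 116.0, 108.8 and 108.0 CPM in NS and 128.3, 108.2 and 122.5 CPM in WS. WS replicates 1 and 3 were the highest libraries and WS replicate 2 lay among the NS values. This gave a log2 fold change of 0.11 with an SE of 0.0829. Selplg, which encodes the selectin ligand PSGL-1, went from 51.2 ± 1.38 CPM in NS to 55.2 ± 3.27 in WS. Siglech, a sialic acid-binding lectin, stood at 15.4 ± 1.69 and 16.4 ± 0.868, Fcrls, an Fc receptor-like protein, at 19.2 ± 1.57 and 20.6 ± 2.14, and Mertk, a kinase receptor for the uptake of dead cells, at 48.7 ± 1.83 and 49.7 ± 5.24 (each SD, n = 3). The groups overlapped for all of these.

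The 3 chains of C1q all had small positive log2 fold changes, none past the test. Their genes lie side by side on the minus strand of chromosome 4 in GRCm38, C1qb at chr4:136880129-136886187, C1qc at chr4:136889804-136893065 and C1qa at chr4:136895917-136898803, with 3.62 and 2.85 kb between neighbours and no other coding gene among them. C1qa was at 47.7, 42.3 and 47.1 CPM in NS and 50.2, 47.3 and 48.4 CPM in WS, so that NS replicate 2 was low and NS replicate 1 reached the WS range. C1qb was at 51.3, 49.0 and 54.5 CPM in NS and 57.4, 55.7 and 53.7 CPM in WS, and NS replicate 3 exceeded WS replicate 3. C1qc was at 48.4, 45.7 and 52.5 CPM in NS and 56.8, 50.2 and 46.8 CPM in WS, where WS replicate 3 was among the lowest. The groups overlapped for each chain. The log2 fold changes were 0.09, 0.11 and 0.07 in that order, with SEs of 0.0873, 0.083 and 0.0982, and the upper bounds of their 95% intervals were 0.28, 0.29 and 0.28. With each library left out in turn, they were 0.04 to 0.12 for C1qa, 0.07 to 0.15 for C1qb and -0.01 to 0.13 for C1qc. The proportion of the chains to each other changed little, with 1.08 to 1.18 C1qb counts and 0.967 to 1.13 C1qc counts for each C1qa count across the 6 libraries. C1qb had the smallest ratio of highest to lowest library of all members, at 1.17.

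C3, the central complement protein, was barely detected. It had 3, 3 and 5 counts in NS and 4, 5 and 3 in WS, too few for the test, and a difference in C3 was not detectable at this depth. The subunits of its receptor CR3 differed in level. Itgam, the CD11b subunit, was at 19.7, 21.0 and 20.9 CPM in NS and 25.2, 19.2 and 27.9 CPM in WS. WS replicates 1 and 3 were above all NS libraries and WS replicate 2 below them. Its log2 fold change was 0.23 (95% interval -0.05 to 0.51) with an unadjusted p of 0.103 in edgeR's test, and the SD was 4.45 CPM in WS against 0.704 in NS. Itgb2, the CD18 subunit, was at 5.06 ± 0.813 CPM in NS against 5.07 ± 0.22 in WS (SD over 3 libraries), with an interval of the log2 fold change from -0.37 to 0.37. C3ar1 had the widest interval of the list, around 2.15 ± 0.651 CPM in NS and 1.96 ± 0.416 in WS.

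The ITAM adaptors and their partner receptors had positive log2 fold changes in 4 of 4 members, none past the test. Tyrobp, which encodes the adaptor DAP12, was at 12.8, 10.9 and 12.5 CPM in NS and 15.9, 12.9 and 11.4 CPM in WS. WS replicate 1 was highest and WS replicate 3 was below NS replicates 1 and 3, and the log2 fold change was 0.15 with an SE of 0.139. Leaving out WS replicate 1 gave 0.01, NS replicate 2 gave 0.08 and WS replicate 3 gave 0.25. Trem2, the lipid-sensing receptor that signals through DAP12, was at 9.27, 9.42 and 11.6 CPM in NS and 10.7, 10.8 and 11.4 CPM in WS. NS replicate 3 was the highest library of all, above every WS value. Trem2 had a log2 fold change of 0.12 with an SE of 0.128. For the IgG receptor Fcgr3, the levels were 10.9, 10.5 and 14.8 CPM in NS and 13.3, 13.4 and 14.2 CPM in WS. Again NS replicate 3 was highest, and the log2 fold change was 0.17 with an SE of 0.139. Fcer1g, the Fc receptor gamma chain, was at 9.03 ± 0.913 CPM in NS and 10.1 ± 1.17 in WS.

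Of the transcription factors, Irf8 had the most negative value of the list and the other two were positive. Irf8, an interferon regulatory factor needed for the macrophage lineage, was at 6.93, 7.18 and 6.52 CPM in NS and 6.46, 5.44 and 5.31 CPM in WS. All WS libraries lay below all NS libraries, WS replicate 1 by a narrow margin. Such a separation downward was found in 1 of 33 members and in 3.16% of all tested genes. For Irf8 it gave -0.26 on the log2 scale (95% interval -0.59 to 0.06), with an unadjusted p of 0.106 in edgeR's test and a p of 0.1 in a two-sided exact permutation test, the smallest that 3 against 3 libraries allow. Irf8 lies at chr8:120736358-120756694 on the plus strand, within a longer gene model of the same strand, Gm20388, and how shared reads were assigned is not given in the sources used here. Spi1, which encodes the myeloid master factor PU.1, was at 5.36, 5.49 and 6.4 CPM in NS and 6.4, 4.95 and 6.38 CPM in WS. The groups covered nearly the same range, and the log2 fold change was 0.04 with an SE of 0.166. Sall1, a zinc finger factor that sets microglia apart from other macrophages, was at 27.3, 28.6 and 25.8 CPM in NS and 29.2, 28.3 and 32.1 CPM in WS. WS replicate 2 fell within the NS range, and the log2 fold change was 0.13 with an SE of 0.0954.

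Among the lysosomal and endosomal proteins Laptm5 was the member with the clearest separation. Laptm5, a lysosomal membrane protein of blood-derived cells and microglia, was at 55.5, 54.2 and 57.1 CPM in NS and 62.4, 65.3 and 62.8 CPM in WS. Every WS library was above every NS library, with a gap wider than the range within either group, a separation upward that 1 of 33 members and 3.11% of all tested genes had. The means were 55.6 ± 1.49 and 63.5 ± 1.56 CPM (SD, n = 3 each), and the log2 fold change was 0.19 with an SE of 0.0772. The unadjusted p was 0.0303 in edgeR's quasi-likelihood test, 0.0612 when blocked on the replicate number, and 0.1 in the two-sided exact permutation test, again the smallest possible. It did not pass the correction over all genes, with an adjusted p of 0.9998 and of 0.884 to 1.0 across the alternative settings. Laptm5 lies at chr4:130913125-130936141 on the plus strand, overlapped by no other annotated gene. Cd68, a lysosomal glycoprotein of phagocytes, was at 12, 11.9 and 15 CPM in NS and 16.6, 14 and 14 CPM in WS. NS replicate 3 exceeded WS replicates 2 and 3, and the log2 fold change was 0.20 with an SE of 0.129. Ctss was at 49.6 ± 4.63 CPM in NS and 51.7 ± 4.25 in WS.

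The remaining 6 genes encode other leukocyte or microglial proteins, and 5 of them had positive values. Olfml3, a secreted protein enriched in microglia, was at 17.1, 11.5 and 15.8 CPM in NS and 23.2, 13.2 and 15.5 CPM in WS. Its highest library was 2.01 times its lowest, the widest range of any member, and both replicate 2 libraries were low. Olfml3 had a log2 fold change of 0.22 with an SE of 0.2, and -0.05 to 0.38 with each library left out in turn. Aif1, which encodes the common microglial stain IBA1, was at 3.15, 2.37 and 3.23 CPM in NS and 3.26, 2.60 and 4.17 CPM in WS. The groups overlapped, the replicate 2 libraries were again lowest, and the log2 fold change was 0.19 (95% interval -0.31 to 0.70). Leaving out WS replicate 3 gave 0.01, NS replicate 2 gave 0.07 and WS replicate 2 gave 0.34. Itgb5, an integrin subunit, was at 50.4 ± 2.87 CPM in NS and 55.8 ± 6.39 in WS, with WS replicate 1 at 63.2. Ptprc, the leukocyte phosphatase CD45, was at 2.29 ± 0.329 and 2.59 ± 0.506 CPM. Cd53, a tetraspanin of leukocytes, was at 8.85 ± 0.788 and 8.80 ± 0.745 CPM, and Ly86, which encodes the MD-1 protein, at 9.55 ± 2.19 and 9.83 ± 1.79 CPM (each SD, n = 3).

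The members varied together across the libraries only in part. Over the 6 libraries the median Pearson correlation between 2 members was 0.22, with 26.1% of the 528 pairs above 0.5, beside a median of 0 and 18.9% over all pairs of tested genes. For deviations from the group means the median was 0.14, with 23.9% above 0.5 beside 22.5%. These are descriptions of 6 points that share depth, dissection and group. The C1q chains followed each other, with 0.83 for C1qa and C1qb and for C1qb and C1qc, and 0.68 for C1qa and C1qc. Against the median of the other members, Fcrls had a correlation of 0.95, Fcer1g of 0.90 and Csf1r, C1qa and P2ry6 of 0.86 each. It was below 0 for 6 members, P2ry12 at -0.61, Gpr34 at -0.38, Ptprc at -0.24, Ly86 at -0.08, and Cx3cr1 and Irf8 both at -0.02. For deviations from the group means it was highest for C3ar1 at 0.93, stood at 0.75 for Fcrls and for Csf1r, and was -0.73 for P2ry12, -0.68 for Ly86, -0.64 for Ptprc, -0.46 for Gpr34 and -0.42 for Itgb2.

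**Figure D4:**
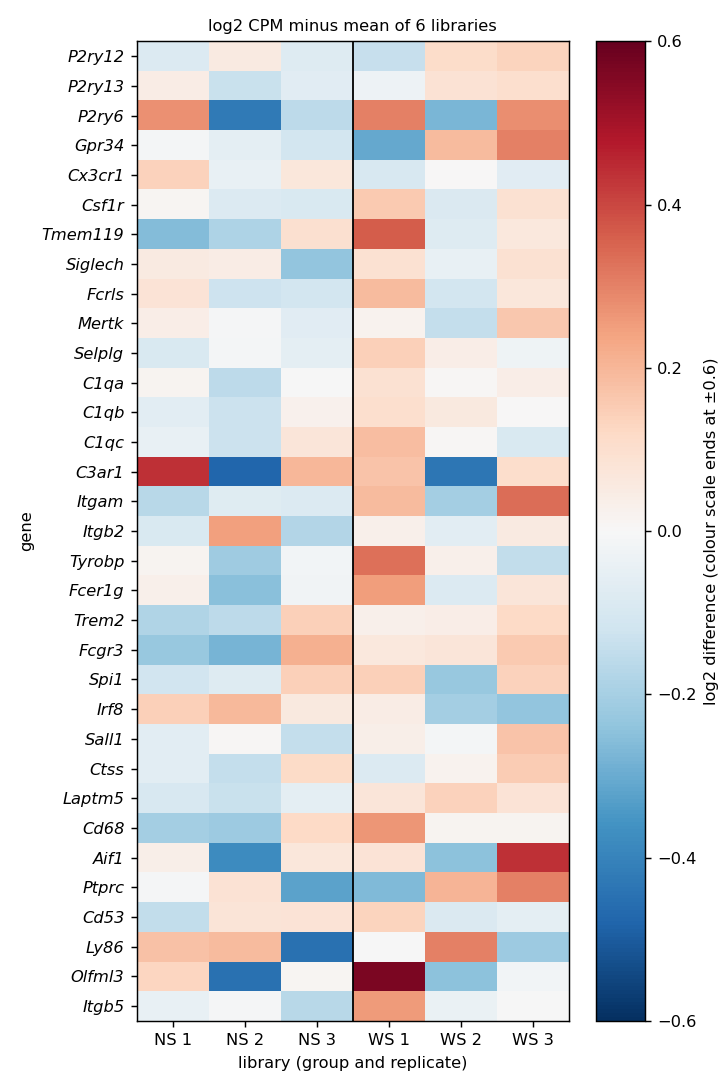
Log2 deviation of each of the 33 tested genes from its own mean over the 6 libraries, with NS replicates on the left of the line and WS replicates on the right. WS replicates 1 and 3 hold values above 0 for 26 and 25 genes, WS replicate 2 for 16, and NS replicate 2 for 8. The share over all tested genes was not worked out.

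The regions before the start sites were searched for the letters of a PU.1 site as known from myeloid genes, since Spi1 is itself a member. RefSeq promoter windows, from 250 bases before to 50 bases after a start, were at hand for 25 of the 34 genes. GAGGAAGT, or its reverse complement ACTTCCTC, was present in 3 of 25 genes or 12%, which were C1qc, Cd53 and Ctss, and in 3.69% of all 27025 genes with a window. The shorter GAGGAA, or TTCCTC, which the longer one contains, was present in 14 of 25 genes or 56.0%, against 31.3% of all genes with a window and 30.4% of those tested here. A match describes the letters and not a bound site, and no match says only that the letters are not in this window. The 120 bases before the start in GRCm38.p6 are shown 5′ to 3′ for 4 genes of different roles, a C1q chain, the CD11b subunit of CR3, the lipid receptor and an ADP receptor, with matches to GAGGAA or TTCCTC in capitals.
C1qb, chr4:136886201-136886320, minus strand: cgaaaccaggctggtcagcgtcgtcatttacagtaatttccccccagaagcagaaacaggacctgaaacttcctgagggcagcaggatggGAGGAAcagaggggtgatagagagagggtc
Itgam, chr7:128062520-128062639, plus strand: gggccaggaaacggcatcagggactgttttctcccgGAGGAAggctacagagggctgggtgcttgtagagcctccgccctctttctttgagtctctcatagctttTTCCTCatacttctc
Trem2, chr17:48346281-48346400, plus strand: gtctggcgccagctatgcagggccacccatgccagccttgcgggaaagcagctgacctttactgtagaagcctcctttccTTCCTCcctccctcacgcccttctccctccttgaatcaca
P2ry13, chr3:59210883-59211002, minus strand: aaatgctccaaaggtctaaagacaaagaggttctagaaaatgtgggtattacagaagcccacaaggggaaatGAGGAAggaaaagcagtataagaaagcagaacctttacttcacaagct
Counted from the start site, the first base of the match lies at -30 in C1qb, -40 in Trem2 and -48 in P2ry13. In the bases shown Itgam has a match on each strand, at -84 and -15. Its window holds another at 32, past the start. In the order C1qb, Trem2, P2ry13 and Itgam, the log2 fold changes were 0.11, 0.12, 0.105 and 0.23, none past the test. Both windows of Irf8 were without a match.

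Some members are neighbours in the genome besides the C1q genes. P2ry12 and P2ry13 lie 5.39 kb apart on chromosome 3, both within Med12l on the other strand, and Tmem119 and Selplg lie 18.0 kb apart on chromosome 5. Fcer1g and Fcgr3 are separated by 165 kb and 7 coding genes on chromosome 1. The gene model of Cx3cr1 spans 168 kb and overlaps Gorasp1, Csrnp1 and Xirp1 on its own strand, and Gpr34 lies within Cask on the other strand, so the counts of these members could include reads of a neighbour.

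Other genes of the complement system, or listed with it, were also without a call. Those listed with it include the neuronal pentraxin genes, Sez6 and its relatives, and C1qbp. Of a list of 43, 34 were in the table and 29 were tested, 21 with a positive and 8 with a negative log2 fold change, 0 past an adjusted p under 0.05 and 0 past an unadjusted one, with a median of 0.09. The extremes were the neuronal pentraxin receptor gene Nptxr at -0.08 and C4a at 0.77. Among the 8 negative genes were Nptx1, Nptx2, Nptxr, Sez6l and C1qbp. C4a had 3, 8 and 12 counts in NS and 5, 11 and 24 in WS, with overlap and an SE of 0.596. C4a and its near copy C4b share sequence, so reads could have been split between them. C4b, a component cleaved by the activated C1 complex, stood at 9.70 ± 1.38 CPM in NS and 10.9 ± 0.733 in WS. A list of genes that signal to microglia from other cells, or protect from uptake, also holds receptors such as Sirpa, Axl and Tyro3. Of its 14 genes 12 were tested, 7 positive and 5 negative with a median of 0.01 and no unadjusted p under 0.05. Their extremes were Icam5, a neuronal adhesion molecule, at -0.07 and Tgfb1, the growth factor that maintains microglial identity, at 0.22. Cx3cl1, the ligand of the Cx3cr1 receptor and named after the values were seen, was at 1279 ± 191 CPM in NS and 1264 ± 85.1 in WS.

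Genes linked to activated microglia were mixed. The samples were not sorted, so which cell types these reads came from is not known. Of 24 genes known from disease-associated or axon-tract microglia, 22 were in the table and 19 tested, 12 positive and 7 negative with a median of 0.07, and 0 had an adjusted p under 0.05. Spp1, which encodes osteopontin, was the 1 gene with an unadjusted p under 0.05. It was at 6.68, 7.74 and 6.09 CPM in NS and 10.5, 12.1 and 6.63 CPM in WS. WS replicates 1 and 2 were above all NS libraries and WS replicate 3 within them. Spp1 had a log2 fold change of 0.51 (95% interval 0.07 to 0.96), with an unadjusted p of 0.0276 in edgeR's test and an adjusted p of 0.9998. With the replicate block the unadjusted p was 0.00362 and the adjusted p 0.9999. The lowest of this list was the MHC class II gene H2-Ab1 at -0.12. Of 19 inflammatory genes 10 were tested, 5 positive and 5 negative with a median of 0.01, from the endotoxin co-receptor gene Cd14 at -0.28 to the cytokine gene Il1a at 0.48. Il1a had 19, 12 and 11 counts in NS and 29, 12 and 19 in WS, and 0 of these genes had an unadjusted p under 0.05.

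The tissue also holds other macrophages and blood cells. Of 13 markers of border-associated macrophages, which line vessels and meninges and share several members such as Csf1r and C1qa, 11 were in the table and 8 tested, 6 positive and 2 negative, from Cd163 at -0.15 to Mrc1 at 0.22, with a median of 0.04. Their summed level was 28.0 to 35.5 CPM in NS and 32.0 to 36.9 CPM in WS. Of 18 markers of other leukocytes, 13 were not in the table, and the 5 that were summed to 2.08 to 4.85 CPM in NS and 1.77 to 7.92 CPM in WS. Cd4, the 1 tested, had 16, 24 and 51 counts in NS and 18, 107 and 14 in WS, with a log2 fold change of 0.59 and an unadjusted p of 0.392 in edgeR's test. The 7 red blood cell genes were all listed and summed to 484.5 to 767.0 CPM in NS and 603.3 to 639.1 CPM in WS, with 6 of 6 tested positive, from Hbb-bt at 0.00 to Hbb-b1 at 0.20, and a median of 0.05. Hbb-b1 had an unadjusted p of 0.894 in edgeR's test and of 0.0216 with the block. Their part in the values of the microglial genes was not tested.

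Markers of most other non-neuronal cells were also higher in WS on average, as the microglial genes were. The summed CPM of the microglial genes was 6.94% higher in WS than in NS, that of 15 endothelial markers 10.7%, of 10 pericyte markers 7.66%, of 10 astrocyte markers 7.2% and of 10 oligodendrocyte markers 14.6%, while that of 10 neuron markers was -1.51% from NS. The log2 fold change was positive in 15 of 15 endothelial, 8 of 10 pericyte, 10 of 10 astrocyte, 10 of 10 oligodendrocyte and 5 of 10 neuron markers, with medians of 0.09, 0.11, 0.13, 0.19 and 0.01. The range of the summed level was 476.9 to 540.2 CPM in NS and 508.9 to 593.1 in WS for the endothelial list, and 8431 to 12140 in NS and 10000 to 13440 in WS for the oligodendrocyte list, so the groups overlapped. It was 286.2 to 289.8 CPM in NS and 293.0 to 339.8 in WS for the pericyte list, without overlap, 4587 to 5100 and 4810 to 5935 for the astrocyte list, and 13520 to 13970 and 13220 to 14020 for the neuron list. None of the defining markers in these 5 lists was at 0. By the same-numbered libraries, the summed level was higher in WS in 3 of 3 pairs for the endothelial, pericyte and oligodendrocyte lists, as it was for the microglial genes. Without the block, Pecam1, an adhesion molecule of endothelial cells, was the 1 gene of these lists with an unadjusted p under 0.05 in edgeR's test. With the block there were also Gja1 and 5 of the 10 oligodendrocyte markers, which were Mbp, Mog, Mag, Mobp and Cldn11, all higher in WS, with unadjusted p from 0.0115 for Gja1 to 0.0493 for Mog and an adjusted p of 0.9999 each, beside 1.38% of all tested genes higher at an unadjusted p under 0.05 in that fit. Pecam1 was at 17.2, 16.3 and 19.2 CPM in NS and 22.2, 33.0 and 41.5 CPM in WS, all WS libraries above all NS libraries, with a log2 fold change of 0.87, an SE of 0.185 and an adjusted p of 0.813 in edgeR's test that was 0.000948 with the replicate block. At the low end of each list were Tie1 at 0.00, Higd1b at -0.17, Slc1a3 at 0.04, Opalin at 0.14 and Syt1 at -0.08, and at the high end of the others Ndufa4l2 at 0.21, Gja1 at 0.59, Cldn11 at 0.24 and Gad2 at 0.21. Gja1 had 347 counts in NS replicate 3 against 2953 to 3688 elsewhere. Whether the makeup of the tissue pieces has a part in the shift of the microglial genes was not tested.

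**Figure D5:**
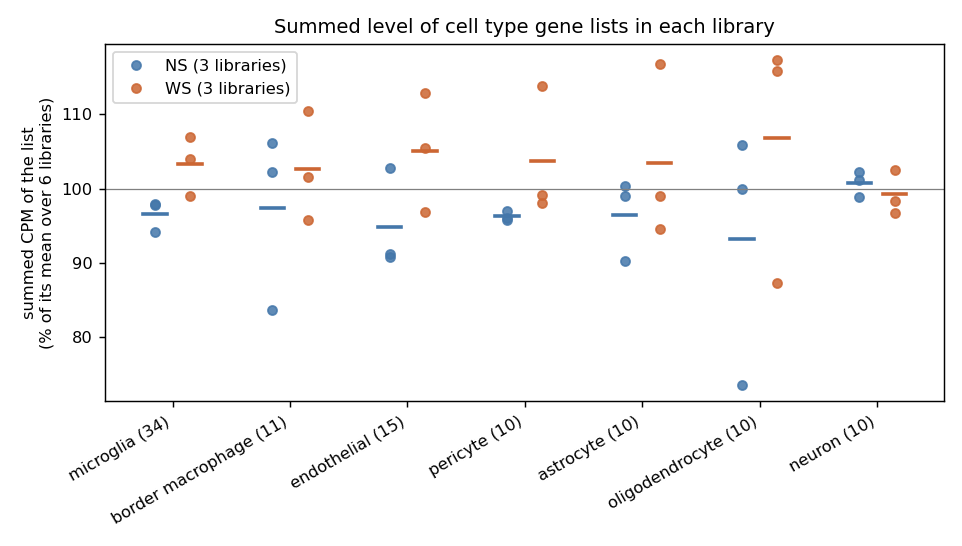
Summed CPM of each cell type's genes in each library, as a percentage of its mean over the 6 libraries, with short bars at the group means and the number of listed genes in brackets. The microglial genes are 6.94% higher in WS, and the WS mean is above the NS mean for every list shown but the neuron markers.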

How the data were processed

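RNA of S1 cortex from 3 NS and 3 WS samples was sequenced on a DNBseq instrument, and the authors aligned the reads with HISAT2. The methods give a minimum RNA integrity number for a sample to be used. The value of each sample is not given in the sources used here, so RNA quality could not be compared between libraries. The submitters' processing notes name the mm10 build, and the counting tool and annotation are not given in the sources used here. For each gene the authors deposited the mean and the SD of an estimated count over the 6 libraries, not scaled for depth, and a score for each library, the z-score. The deposited tables also hold the authors' own comparison (fold change, p-value, FDR score and −log10 p-value), and none of these columns was used. One column name carries an extra letter, and it was read as WS replicate 3 since it enters the mean the authors give for WS.

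The expected counts of a library were obtained by multiplying its z-score by the SD and adding the mean, and were rounded to whole numbers. In the 13418 genes where the deposited decimals left under 0.1 count of uncertainty, 88.5% of values came back whole, against 4.45% by chance. The design had been written for counts so computed. Only 1 value was under 0.5 count, so the table holds few genes with an empty library. Library totals ranged from 15660395 to 17276168, and counting error is largest for genes of few counts. No pair of libraries came near sampling noise, the lowest chi-square per degree of freedom being 4.29, so each was counted as 1 replicate.

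Counts were tested with edgeR 4.0.16 (TMM, filterByExpr, quasi-likelihood test) without covariates and Benjamini-Hochberg adjustment over 13747 genes. An adjusted p under 0.05 with an absolute log2 fold change above 1 was the threshold. The software was R 4.3.3 with limma 3.58.1 and DESeq2 1.42.0, and SciPy 1.17.1 in Python 3.11.15. The replicate numbers come from the labels. Same-numbered NS and WS libraries deviated together from their group means, with correlations of 0.342, 0.228 and 0.124 over 13747 genes, which are not independent, and by this correlation each library was closest to its own number. By chi-square over counts this was not so, with NS replicate 3 at 4.63 per degree of freedom from WS replicate 2 and 9.25 from WS replicate 3. The study's schematic defines NS as the unstimulated side of the stimulated mice, and the legend for these data gives 3 male mice. Which NS and WS libraries come from the same mouse is not given in the sources used here. A fit with the number as a block was therefore run beside the one without.

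The members and lists were chosen with earlier results of these data known, so no set test was made and no p was adjusted over the list alone. Named with all values were 13 defining members, members with an unadjusted p under 0.05 or with groups that do not overlap, and the largest absolute log2 fold change of each role group. Of the other lists, the genes with an unadjusted p under 0.05 and the extremes were named. Alternatives were other normalizations, filters and thresholds, DESeq2, unrounded counts, the block and each library left out in turn. Positions come from GENCODE M21 on GRCm38, promoters from RefSeq on GRCm38.p6.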

Additional observations from a re-analysis of the deposited data

How the results depend on the processing

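No member passed the threshold in any setting run, by edgeR or DESeq2, and the lowest adjusted p of a member was 0.884. The number of all genes past the threshold was 4, and it was 5 with the adjusted p alone, 5 with DESeq2, and 0 to 6 with each library left out, 0 without NS replicate 2 or NS replicate 3. With the replicate block it was 6, and the number of members higher at an unadjusted p under 0.05 was 0 in place of 1. The block changed no other call among the members. Left out in turn, the libraries gave 0 to 3 members higher and 0 to 1 lower at that threshold, beside 0.649% to 2.30% and 0.159% to 2.10% of all genes. The median log2 fold change of the members was 0.07 to 0.14 with libraries left out and 0.10 to 0.11 otherwise. Of 33 members, 24 kept their direction in all 14 alternative settings. Outside the left-out libraries Itgb2 alone reversed, at -0.0018 with library totals only. With libraries left out, the ranges that crossed 0 were -0.0476 to 0.0962 for Mertk, -0.0101 to 0.1304 for C1qc, -0.3505 to 0.0713 for C3ar1, -0.0795 to 0.141 for Itgb2, -0.0222 to 0.1438 for Spi1, -0.0057 to 0.1346 for Ctss, -0.0799 to 0.0304 for Cd53, -0.1376 to 0.1553 for Ly86 and -0.0496 to 0.3762 for Olfml3. Of the 24 members that stayed on one side of 0, 22 moved by over 1.5 times without at least 1 library, Aif1 to between 0.0066 and 0.3365 and Tyrobp to between 0.0066 and 0.2528. Siglech came nearest to 0, with a range from 0.0 when rounded to 0.1373. Genes of a few counts, such as C3, are limited by depth.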
